A study of Mus musculus with 10 samples.

Results

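Expression of 10 genes of the fibroblast growth factor (FGF) family was followed in mouse embryonic stem cells (mESCs) that lacked either of 2 subunits of the histone deacetylase complex MiDAC. They are the ligand genes *Fgf3*, *Fgf4*, *Fgf8*, *Fgf10*, *Fgf15* and *Fgf17* and the receptor genes *Fgfr1*, *Fgfr2*, *Fgfr3* and *Fgfr4*. They were picked out by symbol, as 10 of the 34591 genes in the table. The rule used no measured value, but the list was drawn up with earlier results of these data known. The study compared WT mESCs with *Dnttip1* KO mESCs (clones D2A7 and D1E6) and *Elmsan1* KO mESCs (clones E2E8 and E2G7), to learn which genes depend on MiDAC. DNTTIP1 and ELMSAN1 are scaffold proteins of MiDAC, a complex that removes acetyl groups from histones through HDAC1. Total RNA was sequenced from 2 libraries of each of the 5 lines, 10 libraries in all.

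Each knockout clone was made by CRISPR/Cas9 from the C57/BL6 Bruce-4 line and is a single clone, so a clone and its genotype cannot be told apart where the clones of a genotype differ. The clones were grown from sorted single cells, a step the study does not describe for the WT line. A change that all clones share can therefore not be told apart from an effect of this step. The study describes the libraries of a line as biological replicates, while the labels do not tie them to separate cultures, and p-values measure the spread between these libraries. All 5 lines were kept in 2iL medium, which holds the cytokine LIF, the GSK3β inhibitor CHIR 99021 and the MEK inhibitor PD 0325901. The last of these blocks the kinase cascade below the FGF receptors, and WT cells carried it too.

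Most FGFs are secreted proteins that bind receptor tyrosine kinases together with heparan sulfate chains on the cell surface. An active receptor signals through the adaptor FRS2 to RAS, RAF, MEK and ERK, and ERK activity induces genes that damp the same signal. In mESCs, FGF4 acting through FGFR1 is known as a signal that readies naive cells for differentiation. FGF15 belongs to the endocrine FGFs, FGF3 and FGF10 signal mainly through the b form of FGFR2, and FGF8 and FGF17 are close relatives that act in the patterning of the early embryo and brain.

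Levels are given as FPKM, the number of fragments divided by exon length (in kilobases) and by library size, scaled between libraries by 1 factor each, from 0.965 to 1.01. Since FPKM is per length, levels may be compared between genes. The number of fragments behind each value could be recovered from the table, and the libraries held from 31098193 to 86464211 fragments, with the fewest in the WT libraries. *Dnttip1* was at 8.45 and 8.35 FPKM in WT, at 4.57 and 4.55 in D2A7 and at 2.58 and 2.60 in D1E6. *Elmsan1*, listed under its older symbol C130039O16Rik, was at 5.73 and 5.34 FPKM in WT and between 4.62 and 5.13 in the *Elmsan1* KO libraries, so its mRNA level checks the labels of those clones poorly. Pluripotency markers summed to between 1291 and 1343 FPKM in the WT libraries. This sum was lower in every KO library, from 1070 in E2E8 to 1256 in D2A7. *Pou5f1*, *Sox2*, *Nanog*, *Klf4*, *Esrrb* and *Dppa3* were highest in a WT library. *Zfp42* was instead at 67.4 and 69.3 FPKM in WT and reached 108 in a KO library. *Tfcp2l1* was at 146 and 148 in WT and ranged from 113 to 178 over all libraries. Of the fibroblast markers, 4 of 6 were under 0.1 FPKM in every library.

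In WT mESCs, *Fgf4* was the most abundant of the 10 mRNAs, at 117 ± 0.324 FPKM (SD, n = 2), 13.4 times the next one. *Fgf17* followed at 8.77 ± 0.901, then *Fgfr1* at 7.15 ± 0.274, *Fgf10* at 1.60 ± 0.0956, *Fgf3* at 1.10 ± 0.180, *Fgfr2* at 0.996 ± 0.0670 and *Fgf15* at 0.646 ± 0.0764 FPKM. *Fgfr4* at 0.171 ± 0.0235, *Fgfr3* at 0.0880 ± 0.0331 and *Fgf8* at 0.0414 ± 0.0236 FPKM closed the order. The ranges of the WT libraries overlapped for only 1 pair of neighbours in this order, *Fgf3* and *Fgfr2*. Neighbours in this order changed places at 2 points. *Fgf17* was above *Fgfr1* in 2 of the 10 libraries, both WT, and *Fgf15* was above *Fgfr4* in 3 of the 10. In E2E8, *Fgfr4* was above *Fgfr2* as well.

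**Figure D1:**
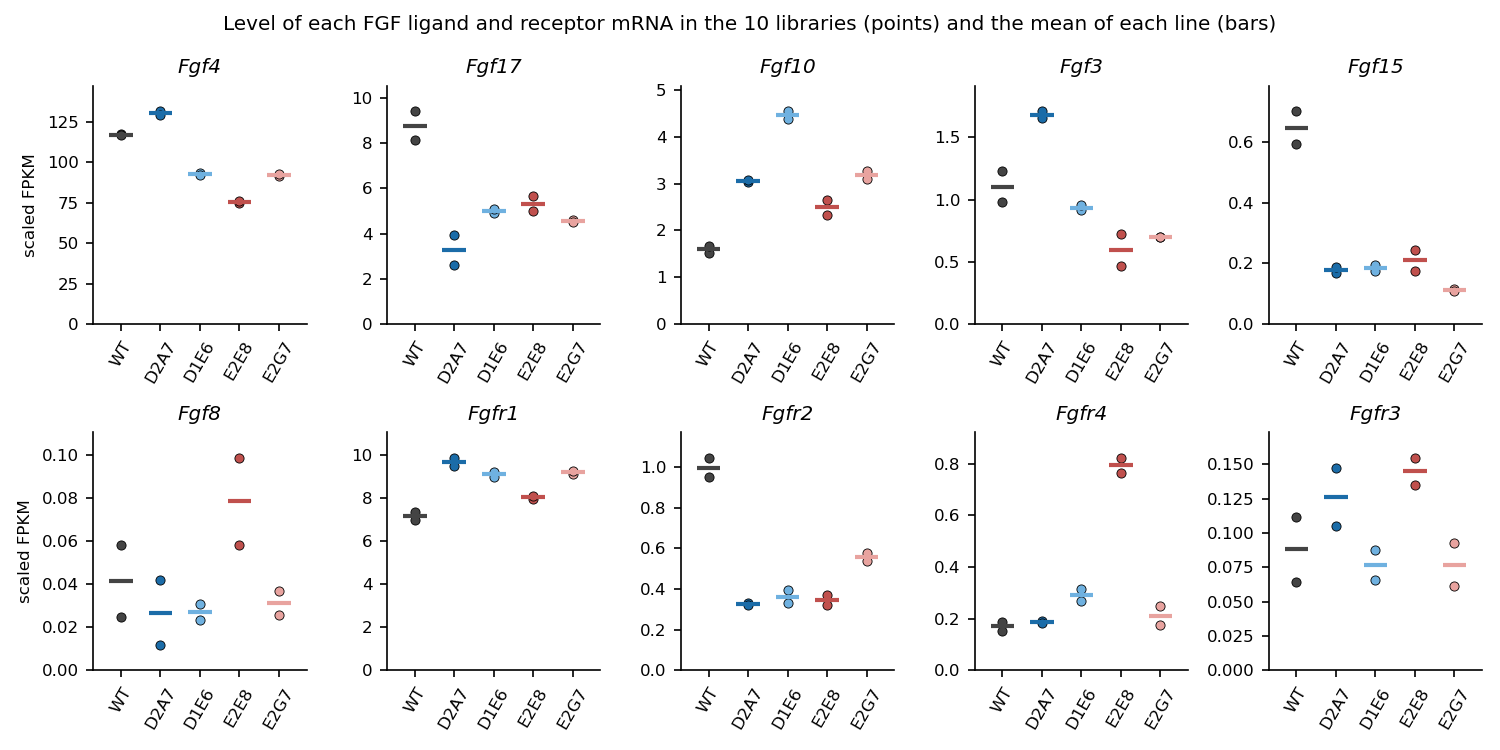
Level of each ligand and receptor mRNA in scaled FPKM (y axis, from 0, a separate scale for each gene) in the 5 lines (x axis). Points are libraries and bars are means of 2 libraries. *Fgf15*, *Fgf17* and *Fgfr2* were highest in both WT libraries and *Fgf10* was lowest there, while *Fgfr4* stood out in clone E2E8 at 0.765 and 0.823 FPKM.

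Against WT, 3 members were called lower and 1 was called higher in *Dnttip1* KO mESCs, and the calls in *Elmsan1* KO mESCs fell on the same 4 genes with the same direction. *Fgf15*, *Fgf17* and *Fgfr2* fell and *Fgf10* rose. A gene was called at a fold change of at least 1.5 with an unadjusted p under 0.01 in limma, on log2(FPKM + 0.1), and Benjamini-Hochberg adjusted p-values over all genes tested stand beside it. By this rule 3.25% of the 17434 genes tested were called lower and 3.26% higher in *Dnttip1* KO, against 3.68% and 2.74% of 17212 genes in *Elmsan1* KO. In the same direction in both knockouts, 4 of the 10 members and 2.84% of all genes tested were called. The comparisons share the WT libraries, so the second is not independent of the first. *Fgf8* was at or above 0.1 FPKM in none of the libraries and was not tested. The other 9 members were.

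*Fgf15* encodes the mouse counterpart of human FGF19. It lies on chromosome 7 (NCBIM37, 152082437 to 152086858, plus strand) and measured 0.700 and 0.592 FPKM in WT. It was at 0.169 and 0.187 in D2A7, 0.194 and 0.175 in D1E6, 0.174 and 0.245 in E2E8, and 0.117 and 0.109 in E2G7. Every KO library was below both WT libraries, and the highest of them, from E2E8, was still under the lower WT value. The log2 fold change was -1.41 ± 0.163 (SE) in *Dnttip1* KO (adjusted p = 0.00846, limma) and -1.54 ± 0.258 in *Elmsan1* KO (adjusted p = 0.0179, limma), which are folds of 0.378 and 0.344 on the FPKM + 0.1 scale. The mean levels were 0.181 and 0.161 FPKM against 0.646 in WT, so the ratios of the levels themselves were 0.280 and 0.249. These values rest on 79 fragments in the WT libraries together and on 17 to 41 in each library. A noncoding gene on the opposite strand over the same stretch, Gm17685, held at most 2 fragments in any library.

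*Fgf17* encodes a ligand of the FGF8 subfamily. It lies on chromosome 14 (71036012 to 71042075, minus strand) and was at 9.40 and 8.13 FPKM in WT. The levels were 2.61 and 3.92 in D2A7, 4.92 and 5.10 in D1E6, 4.98 and 5.67 in E2E8, and 4.62 and 4.50 in E2G7. No KO library reached either WT library, and D2A7 was the lowest line. The log2 fold change was -1.11 ± 0.273 in *Dnttip1* KO (adjusted p = 0.0582, limma) and -0.82 ± 0.118 in *Elmsan1* KO (adjusted p = 0.0123, limma). The *Dnttip1* KO call rested on the unadjusted p of 0.00632 from limma and was lost when any 1 of 3 libraries was left out, the WT libraries 1 and 2 and the second D2A7 library, where the adjusted p was 0.306, 0.220 and 0.117 (limma). Its neighbor *Epb4.9*, which encodes the actin-binding protein dematin, is on the same strand 226 bases from *Fgf17*. *Epb4.9* was at 19.4 and 18.1 FPKM in WT and between 10.7 and 15.3 in the clones, with log2 fold changes of -0.49 (adjusted p = 0.109, limma) and -0.36 (adjusted p = 0.0187, limma), under the 1.5-fold limit in both, and it was called lower in D2A7, at -0.68.

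*Fgf10* encodes a ligand known for its part in lung and limb budding. It lies on chromosome 13 (119458598 to 119580922, plus strand) and moved the other way. It was at 1.53 and 1.66 FPKM in WT, 3.04 and 3.07 in D2A7, 4.38 and 4.54 in D1E6, 2.66 and 2.34 in E2E8, and 3.27 and 3.10 in E2G7. All 8 KO libraries were above both WT libraries, with D1E6 the highest line and E2E8 the lowest KO line. The log2 fold change was 1.16 ± 0.203 in *Dnttip1* KO (adjusted p = 0.0246, limma) and 0.78 ± 0.156 in *Elmsan1* KO (adjusted p = 0.0286, limma), or folds of 2.24 and 1.72 on the FPKM + 0.1 scale and 2.35 and 1.78 as ratios of the mean levels. The call was lost without WT library 1 in *Dnttip1* KO, where the log2 fold change was 1.10, and without either WT library in *Elmsan1* KO, where it was 0.73 and 0.84. The start of *Fgf10* is shown here as the only start of a raised ligand. The window reaches from 250 bases before to 50 bases after the start site given by RefSeq on GRCm38.p6, chr13:118714449-118714748, plus strand.
*Fgf10* promoter: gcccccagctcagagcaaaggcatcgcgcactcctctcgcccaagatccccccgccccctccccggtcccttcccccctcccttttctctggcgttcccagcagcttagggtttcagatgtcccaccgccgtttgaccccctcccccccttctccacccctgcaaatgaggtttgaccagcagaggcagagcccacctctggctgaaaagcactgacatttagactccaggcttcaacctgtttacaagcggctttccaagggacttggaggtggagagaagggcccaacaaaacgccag

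*Fgfr2* encodes the receptor through which FGF3 and FGF10 act. It was at 1.04 and 0.948 FPKM in WT, 0.332 and 0.323 in D2A7, 0.394 and 0.331 in D1E6, 0.323 and 0.369 in E2E8, and 0.579 and 0.537 in E2G7. The KO libraries were all below the WT libraries, and E2G7 lay between WT and the other clones. The log2 fold change was -1.30 ± 0.150 in *Dnttip1* KO (adjusted p = 0.00838, limma) and -1.02 ± 0.240 in *Elmsan1* KO (adjusted p = 0.0472, limma), or folds of 0.406 and 0.494 on the FPKM + 0.1 scale. As ratios of the mean levels these were 0.346 and 0.454. In *Elmsan1* KO the call was lost without WT library 1, WT library 2 or the second E2E8 library, with log2 fold changes of -0.95, -1.08 and -0.95. The gene lies on chromosome 7 (NCBIM37, 137306026 to 137410322, minus strand, leaving out 1 annotated transcript of far greater span). Its start window in RefSeq is chr7:130266759-130267058 on GRCm38.p6, minus strand, shown because *Fgfr2* is the only receptor that fell, with an E-box in capitals.
*Fgfr2* promoter: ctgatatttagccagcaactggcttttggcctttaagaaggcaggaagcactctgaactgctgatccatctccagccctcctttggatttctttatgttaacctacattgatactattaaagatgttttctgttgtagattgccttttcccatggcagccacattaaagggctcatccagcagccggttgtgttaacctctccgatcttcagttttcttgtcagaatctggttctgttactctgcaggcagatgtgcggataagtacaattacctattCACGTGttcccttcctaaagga

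Both strands of the promoter windows were searched for the octamer ATTTGCAT, the SOX core ACAATG, the TCF core CTTTGA, the ETS core CCGGAAG, the E-box CACGTG and the CRE TGACGTCA. Windows were at hand for 6 members, 7 windows in all. The *Fgfr2* window held 1 E-box, 28 bases after the start site, the *Fgf3* window held 1 TCF core 197 bases before it, and the windows of *Fgf4*, *Fgf10*, *Fgfr3* and *Fgfr4* held none of the 6 motifs. Over all 32851 windows, 7.15% held the E-box, 12.6% the SOX core, 8.86% the ETS core, 1.74% the octamer and 1.79% the CRE, and 5257 windows held the TCF core. The *Fgfr2* window was 43.7% GC with 4 CpG dinucleotides, and the *Fgf10* window was 60.7% GC with 10. *Fgf4*, the most abundant ligand, had 69.7% GC and 28 CpGs, against a median of 52.7% GC and 7 CpGs over all windows.

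Treating the libraries of a line as independent, as above, takes no account of differences between clones. With the correlation within clones estimated by limma (0.70 in the *Dnttip1* KO comparison and 0.77 in the *Elmsan1* KO comparison), none of the 4 genes had an adjusted p under 0.05. In *Dnttip1* KO, the adjusted p with an estimated correlation was 0.141 for *Fgf15*, 0.341 for *Fgf17*, 0.130 for *Fgfr2* and 0.107 for *Fgf10* in limma, and 3 of the 4 calls by unadjusted p were kept, with *Fgf17* lost. In *Elmsan1* KO it was 0.222 for *Fgf15*, 0.191 for *Fgf17*, 0.300 for *Fgfr2* and 0.248 for *Fgf10* in limma, and the call was kept for *Fgf17* alone.

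*Fgfr1*, the main FGF receptor of mESCs, rose less. It was at 7.34 and 6.95 FPKM in WT, 9.48 and 9.84 in D2A7, 9.20 and 8.97 in D1E6, 7.95 and 8.10 in E2E8, and 9.11 and 9.26 in E2G7. All KO libraries were above both WT libraries. The log2 fold change was 0.39 ± 0.0644 in *Dnttip1* KO (adjusted p = 0.0214, limma) and 0.26 ± 0.0887 in *Elmsan1* KO (adjusted p = 0.117, limma), both under the 1.5-fold limit. *Fgfr1* lies on chromosome 8 (26624126 to 26686186, plus strand), whose 673 genes at a mean of 1 FPKM or more were raised as a group. Their median log2 difference from WT was 0.37 in D2A7, 0.37 in D1E6, 0.35 in E2E8 and 0.36 in E2G7, while over all 12215 such genes it lay between -0.004 and 0.006. *Fgfr1* itself was at 0.43, 0.34, 0.17 and 0.36 in the same order. After the median of each chromosome was set to 0, *Fgfr1* was at 0.06, -0.02, -0.18 and 0.00, within 0.06 of the median of its chromosome in 3 clones and under it in E2E8 (adjusted p = 0.00689, limma). Chromosomes 7, 13 and 14, which carry the 4 called genes, had medians from -0.05 to 0.04 in all 4 clones. The *Fgfr1* row of the table joins 2 annotated gene identifiers of the same symbol.

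*Fgf4*, the ligand that leads the family in mESCs, was at 117 and 117 FPKM in WT, 131 and 129 in D2A7, 93.3 and 92.2 in D1E6, 74.9 and 76.0 in E2E8, and 91.4 and 92.8 in E2G7. The *Dnttip1* clones lay on either side of WT and both *Elmsan1* clones were below it. The log2 fold change was -0.09 ± 0.176 in *Dnttip1* KO (95% interval -0.52 to 0.34, adjusted p = 0.778, limma). In *Elmsan1* KO it was -0.49 ± 0.107 (adjusted p = 0.0379, limma), under the 1.5-fold limit. *Fgf3*, which encodes a ligand of inner ear development, was at 1.23 and 0.977 FPKM in WT, 1.71 and 1.65 in D2A7, 0.914 and 0.953 in D1E6, 0.468 and 0.724 in E2E8, and 0.700 and 0.696 in E2G7. Its D2A7 libraries were above WT and all other KO libraries below it, and its log2 fold change was 0.18 ± 0.303 in *Dnttip1* KO (adjusted p = 0.742, limma) and -0.70 ± 0.210 in *Elmsan1* KO (adjusted p = 0.0875, limma).

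Among the scarce receptors, *Fgfr4* was at 0.188 and 0.154 FPKM in WT, 0.190 and 0.185 in D2A7, 0.267 and 0.316 in D1E6, 0.765 and 0.823 in E2E8, and 0.248 and 0.176 in E2G7. FGFR4 is known as the receptor for FGF15 in liver. The E2E8 libraries stood above all others, and the log2 fold change over both *Elmsan1* clones was 0.96 ± 0.554 (95% interval -0.38 to 2.30, adjusted p = 0.312, limma). In *Dnttip1* KO it was 0.31 ± 0.231 (adjusted p = 0.436, limma). *Fgfr3*, a regulator of bone growth, ranged from 0.0614 to 0.155 FPKM over the 10 libraries with overlapping groups. Its log2 fold change was 0.10 (95% interval -0.51 to 0.70) in *Dnttip1* KO and 0.15 (95% interval -0.48 to 0.79) in *Elmsan1* KO. *Fgf8* held from 1 to 9 fragments in a library, 34 in all 10, and a difference was not detectable at this depth.

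Without regard to the size of the change, the KO and WT libraries did not overlap for 5 of the 10 members in *Dnttip1* KO and for 7 of the 10 in *Elmsan1* KO. Over all genes tested, 41.9% and 43.1% did not overlap, so these counts alone say little about the members.

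Seen clone by clone, the same 4 genes were called in the same direction in each clone against WT, where 2.36% of 17868 genes were called in the same direction in all 4 clones. These fits used 1 mean per line over all 10 libraries, so their error is the spread between libraries of a line. All of these comparisons share the WT libraries. In D2A7 4 members were called, in D1E6 4, in E2E8 7 and in E2G7 4, while 16.3%, 11.0%, 16.1% and 9.95% of all genes were called in either direction. *Fgf15* ranged from -1.28 ± 0.163 in E2E8 to -1.81 ± 0.163 in E2G7 on the log2 scale. *Fgfr2* lay between -1.25 and -1.36 in D2A7, D1E6 and E2E8, and at -0.74 ± 0.123 in E2G7. *Fgf17* was at -1.42 ± 0.166 in D2A7 and between -0.71 and -0.92 in the other clones. *Fgf10* ranged from 0.61 ± 0.0744 in E2E8 to 1.43 ± 0.0744 in D1E6. In E2E8 it was just over the fold limit and was called in 17 of 22 settings. It was not called there after the median of each chromosome was set to 0. The 3 further calls in E2E8 were *Fgf3* at -0.81 ± 0.176, *Fgf4* at -0.63 ± 0.0239 and *Fgfr4* at 1.72 ± 0.160. Without WT library 1 or without the first E2E8 library, E2E8 had 4 members called in place of 7.

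**Figure D2:**
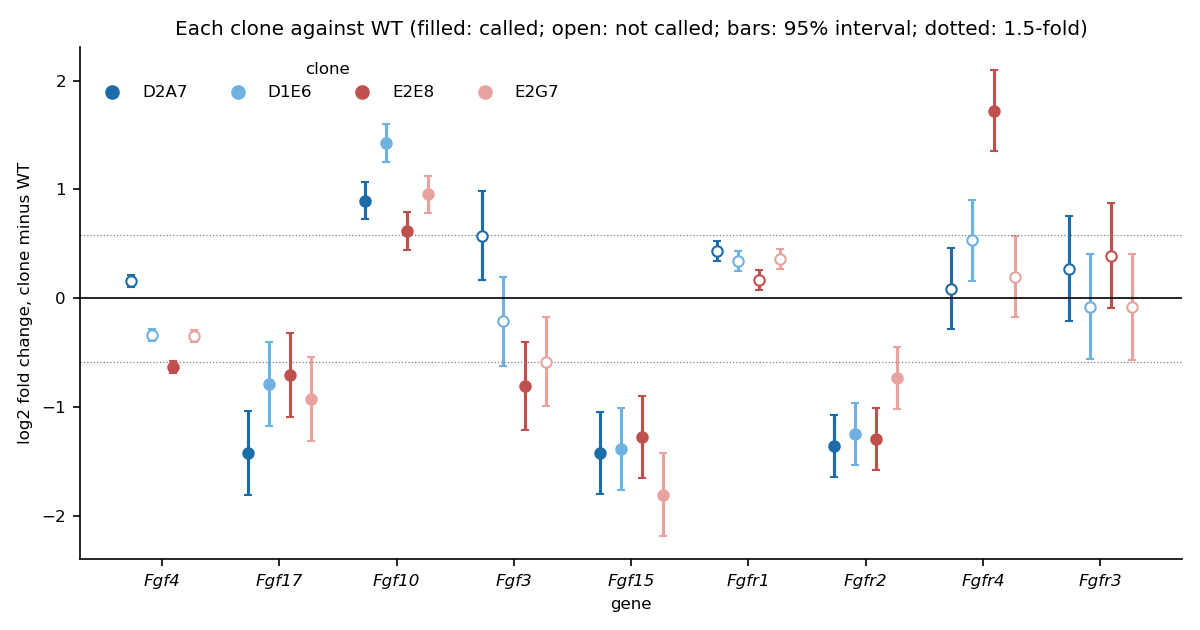
Log2 fold change of each of the 9 members tested (x axis) in each clone against WT (y axis), with bars for the 95% interval of the fit over 5 lines. Filled points passed the fold and p limits and dotted lines mark a 1.5-fold change. *Fgf15*, *Fgf17* and *Fgfr2* were called lower and *Fgf10* higher in each clone, and *Fgfr4* was called in E2E8 only.

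Between the clones of a genotype, D2A7 and D1E6 differed in 2 of the 10 members, where 13.1% of all genes tested were called. *Fgf3* was higher in D2A7 than in D1E6 by 0.79 ± 0.176 on the log2 scale (adjusted p = 0.00837, limma), with means of 1.68 and 0.933 FPKM. *Fgf17* was lower in D2A7 with a log2 difference of -0.63 ± 0.166 (adjusted p = 0.0173, limma), which was -0.35 without the first D2A7 library and was no longer called without that library, either D1E6 library or either E2G7 library. Leaving out 1 library of either clone removed the *Fgf3* call in all 4 cases, with log2 fold changes from 0.76 to 0.81. E2E8 and E2G7 differed in 1 of the 10 members, where 12.5% of all genes tested were called. That gene was *Fgfr4*, at 1.53 ± 0.160 (adjusted p = 0.000214, limma), with means of 0.794 and 0.212 FPKM. *Fgfr2* was lower in E2E8 than in E2G7 by a log2 value of -0.56 ± 0.123 (adjusted p = 0.00708, limma), just under the fold limit, which it passed without the second library of E2E8 or of E2G7 (-0.64 and -0.61). These p-values compare clones and say nothing on how clones of a genotype vary.

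Summed over the 4 receptors, the level was 8.68 and 8.12 FPKM in the WT libraries and between 9.19 and 10.5 in the KO libraries. *Fgfr1* made up 84.5% and 85.6% of the sum in WT, from 91.1% to 93.8% in D2A7, D1E6 and E2G7, and 85.9% and 86.5% in E2E8. The raised level of chromosome 8, which holds *Fgfr1*, stands beside these shares, and its part in them was not tested. *Fgfr2* made up 12.0% and 11.7% in WT and from 3.07% to 5.79% in the KO libraries. In E2E8, *Fgfr4* took 8.32% and 8.73% of the sum, against 1.75% to 3.26% in the other 8 libraries. On the ligand side *Fgf4* made up from 89.3% to 94.6% of the summed level in every library. The sum was 128 and 130 FPKM in WT, 138 and 139 in D2A7, 103 and 104 in D1E6, 83.2 and 85.1 in E2E8, and 100.2 and 101 in E2G7.

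**Figure D3:**
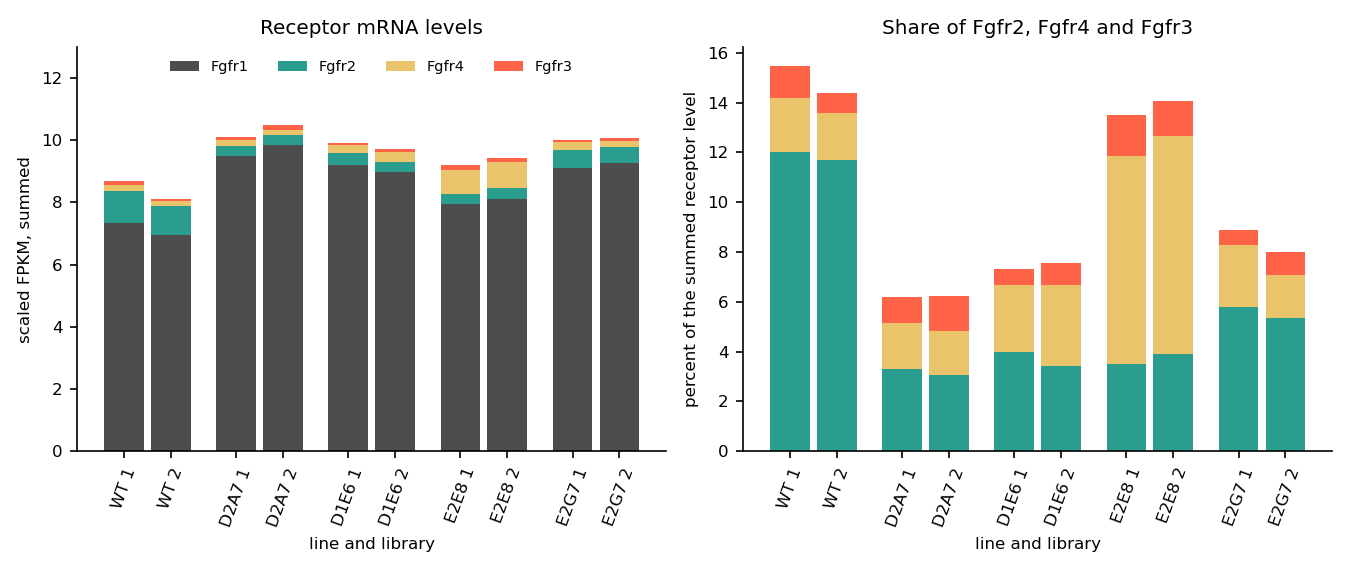
Left, summed level of the 4 receptor mRNAs in scaled FPKM in each library (stacked bars from 0). Right, percent of that sum taken by *Fgfr2*, *Fgfr4* and *Fgfr3*. *Fgfr2* took 12.0% and 11.7% in WT and at most 5.79% in any KO library, and in E2E8 *Fgfr4* took more than *Fgfr2*.

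Set against each other, the knockouts differed in 1 of the 10 members, *Fgf3*, where 1.52% of the 17588 genes tested were called. *Fgf3* had a mean of 1.31 FPKM in the 4 *Dnttip1* KO libraries and 0.647 in the 4 *Elmsan1* KO libraries, which did not overlap. The log2 difference was 0.88 ± 0.240 (unadjusted p = 0.00560, adjusted p = 0.296, limma), and the adjusted p with an estimated correlation within clones was 1.00 in limma. The call was lost without any 1 of 5 of the 8 libraries, with log2 differences from 0.74 to 0.91: both D2A7 libraries, the first E2E8 library and both E2G7 libraries. *Fgf4* differed by 0.40 (95% interval 0.08 to 0.72, adjusted p = 0.296, limma). For *Fgf15*, *Fgf17*, *Fgf10* and *Fgfr2* the differences were 0.14 (95% interval -0.31 to 0.59), -0.29 (95% interval -0.74 to 0.16), 0.38 (95% interval -0.01 to 0.76) and -0.29 (95% interval -0.72 to 0.15). Each of these intervals reaches past a 1.5-fold change, so they do not show that the knockouts act alike on these genes.

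*Fgf3*, *Fgf4* and *Fgf15* lie in a row on the plus strand of chromosome 7, with 16949 bases between the first 2 and 31288 bases between the last 2. Within this row, *Fgf15* was called in every clone while *Fgf4*, upstream of it, was called in E2E8 alone, at -0.63. Of the further genes of the locus, *Ano1* and *Oraov1* were named after their values were seen. *Ano1*, which encodes a calcium-activated chloride channel, lies 86108 bases before *Fgf3* on the opposite strand. It was at 1.03 and 1.27 FPKM in WT and between 0.132 and 0.641 in the KO libraries, with log2 fold changes of -1.11 ± 0.255 in *Dnttip1* KO (adjusted p = 0.0486, limma) and -1.95 ± 0.334 in *Elmsan1* KO (adjusted p = 0.0190, limma). *Oraov1*, beyond *Fgf15*, was at 0.11 in both comparisons and was called in no clone. *Ccnd1*, which encodes cyclin D1 and is the gene after it, fell in both knockouts, by values given with its pathway list. AC161763.1, an annotated miRNA gene and the nearest tested neighbor after *Fgf15*, was at -0.42 (adjusted p = 0.0471, limma) and -0.58 (adjusted p = 0.0231, limma) and was not called in either knockout. It was called lower in 1 clone, E2G7, at -0.67.

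**Figure D4:**
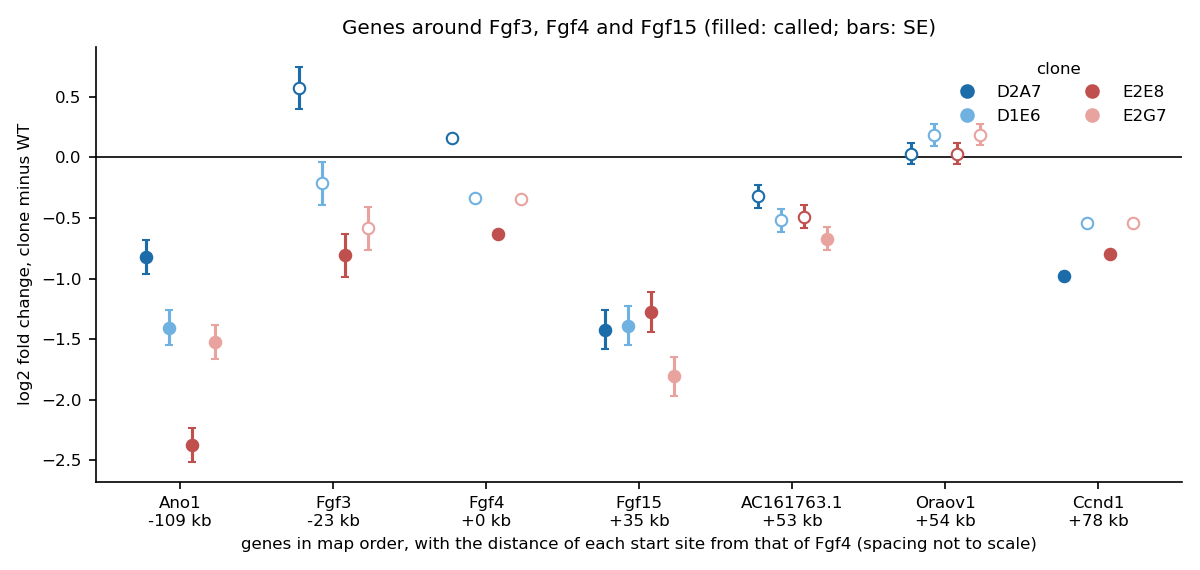
Log2 fold change of each clone against WT (y axis, bars are SE) for 7 genes around *Fgf3*, *Fgf4* and *Fgf15* in map order, with the distance of each start site from that of *Fgf4* in kb under the name. *Ano1* and *Fgf15* were called lower (filled points) in all 4 clones, *Oraov1* in none, and *Fgf4* in E2E8 only.

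The nearest tested genes of the other called members were not called in either knockout. *Mrps30* and *Nnt*, on either side of *Fgf10*, were at -0.04 and 0.33 in *Dnttip1* KO and at -0.01 and 0.13 in *Elmsan1* KO, and Gm16263, a transcript that overlaps *Fgf10* on the other strand, was at -0.04 and -0.11. *Npm2*, the other neighbor of *Fgf17*, was at -0.12 and -0.41. Beside *Fgfr2*, *Wdr11* was at -0.09 and -0.21, and the pseudogene Gm5903 was at 0.58 in both (adjusted p = 0.0181 and 0.00902, limma), just under the fold limit and opposite in sign to *Fgfr2*. Gm5903 was called higher in 2 clones, D2A7 at 0.65 and E2G7 at 0.62.

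The genes whose log2 level over the 10 libraries ran most like each called member were sought among the 12215 genes whose mean reached 1 FPKM. For *Fgf15* these were *Surf2* (Pearson r = 0.991), *Zrsr1* (0.980) and *Tmem126a* (0.978). For *Fgf17* they were *Cdc37l1* (r = 0.972), its neighbor *Epb4.9* (0.969) and *Pirt* (0.962). For *Fgf10* they were *Reg2* (r = 0.979), *Tcl1* (0.972) and *Npepps* (0.962), and for *Fgfr2* *Gtpbp1* (r = 0.972), *Srf* (0.964) and *Arid2* (0.962). The 10 libraries are 5 pairs from 5 lines, so these r values describe the libraries and carry no test. Pearson r takes no account of the size of a change. The log2 fold change of *Surf2* was -0.28 in *Dnttip1* KO and -0.31 in *Elmsan1* KO. *Cdc37l1* was at -0.23 and -0.16 and *Gtpbp1* at -0.18 and -0.16, and these genes were called in neither knockout. *Reg2* was at 0.68 and 0.39 and was called in *Dnttip1* KO.

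The rest of the FGF pathway was read from 5 lists. Over all genes tested, 3.25% were called lower and 3.26% higher in *Dnttip1* KO, and 3.68% and 2.74% in *Elmsan1* KO. Among 16 other *Fgf* genes, 7 were tested in *Dnttip1* KO and 6 in *Elmsan1* KO, and 1 was called lower in each, *Fgf2*. *Fgf2* encodes basic FGF and is a gene with few reads, with 10 and 8 fragments in the WT libraries and from 0 to 3 in each KO library, so no fold is given. The adjusted p of *Fgf2* with an estimated correlation within clones was 0.428 and 0.450 (limma), and neither call was kept. In the 14 co-receptors and receptor partners, 13 tested in *Dnttip1* KO and 11 in *Elmsan1* KO, the heparan sulfate proteoglycan gene *Sdc4* was called higher in both. *Sdc4* was at 79.2 and 78.5 FPKM in WT and between 111 and 150 in the KO libraries, with log2 fold changes of 0.71 ± 0.145 (adjusted p = 0.0373, limma) and 0.72 ± 0.0710 (adjusted p = 0.00477, limma). *Gpc1*, another proteoglycan gene and one named after its values were seen, was called lower in *Dnttip1* KO at -1.28 (adjusted p = 0.00510, limma) and was at -0.78 in *Elmsan1* KO (adjusted p = 0.0958, limma). None of the 20 adaptor and RAS-ERK cascade genes was called in either knockout by limma at these limits, and their median log2 fold changes were -0.06 and 0.00, beside 0.02 and 0.00 over all genes tested.

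Of 14 feedback inhibitors of the pathway, 13 were tested, and 3 were called higher and 0 lower in *Dnttip1* KO, where 3.26% of all genes were called higher and 3.25% lower. Named after their values were seen, these were the Sprouty gene *Spry2* at 0.65 (adjusted p = 0.0486, limma) and the phosphatase genes *Dusp5* at 0.61 (adjusted p = 0.0271, limma) and *Dusp14* at 1.05 (adjusted p = 0.0522, limma). With an estimated correlation within clones 2 of the 3 were called and *Dusp5* was not (adjusted p = 0.305, limma), and the adjusted p was 0.169 for *Spry2* and 0.142 for *Dusp14*. In *Elmsan1* KO none was called by limma at these limits, and the median over the 13 was 0.29, against 0.48 in *Dnttip1* KO and 0.00 and 0.02 over all genes tested.

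Clone by clone, 8 of the 13 were called higher in D1E6, 5 in E2G7, 2 in D2A7 and 1 in E2E8, and none lower, where 5.04%, 3.55%, 10.8% and 10.2% of all genes tested were called higher. After the median of each chromosome was set to 0, 7 were called higher in D1E6, 4 in E2G7, 3 in D2A7 and 1 in E2E8. *Dusp4* was then no longer called in D1E6 or E2G7 and was called lower in D2A7. Several of the inhibitors were chosen here after their values were seen, and they did not share 1 pattern over the clones. *Spry4* was at 0.443 and 0.393 FPKM in WT, 0.635 and 0.638 in D2A7, 4.06 and 4.12 in D1E6, 0.501 and 0.454 in E2E8, and 1.86 and 1.97 in E2G7. *Dusp6*, which encodes an ERK phosphatase, was at 5.29 and 4.55 in WT, 11.3 and 10.7 in D1E6, 7.82 and 7.80 in E2G7, and between 4.15 and 4.89 in D2A7 and E2E8. Both were thus highest in D1E6 and next in E2G7, as was *Etv4*, an ETS factor gene of the list described next, with 4.27 and 4.75 FPKM in D1E6, 2.04 and 2.30 in E2G7 and between 0.515 and 0.816 in the other 6 libraries. *Dusp14* was instead highest in D2A7, at 13.9 and 13.9 FPKM, with 8.56 and 8.61 in D1E6, 8.14 and 9.04 in E2G7, 5.23 and 5.27 in WT and 3.62 and 3.69 in E2E8. *Spry2* was also highest in D2A7, at 43.4 and 43.1 FPKM, against a mean of 23.9 in WT and between 24.8 and 33.5 in the other clones. *Dusp4* was highest in E2E8, at 4.24 and 4.56 FPKM, and lowest in D2A7, at 0.957 and 1.01, with 1.41 and 1.28 in WT, 2.30 and 2.20 in D1E6 and 2.01 and 2.16 in E2G7.

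**Figure D5:**
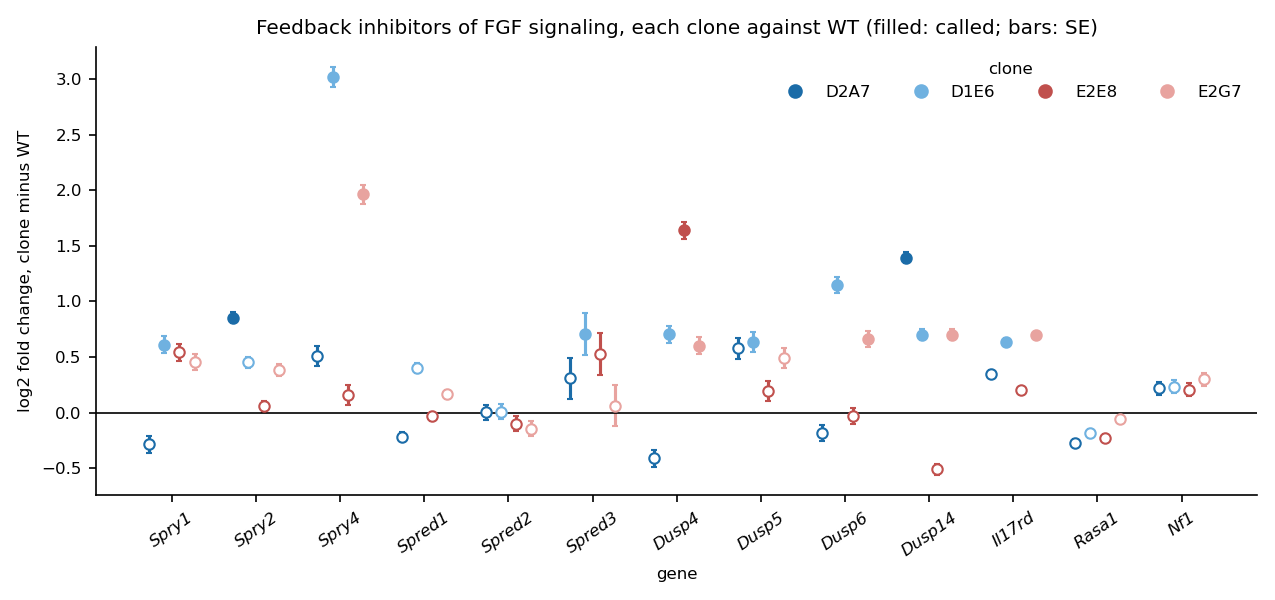
Log2 fold change of each clone against WT (y axis, bars are SE) for the 13 feedback inhibitors tested (x axis). Filled points passed the fold and p limits. *Spry4* and *Dusp6* were called in D1E6 and E2G7 only, *Spry2* in D2A7 only, and *Dusp4* in every clone but D2A7. The values shown are not centred on the median of each chromosome.

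Among 13 ERK-responsive transcription factors and targets, 11 were tested. Of these, 2 were called higher and 1 lower in *Dnttip1* KO, and 1 higher and 1 lower in *Elmsan1* KO. Over all genes tested, 3.26% were called higher and 3.25% lower in *Dnttip1* KO, and 2.74% and 3.68% in *Elmsan1* KO. *Junb*, an AP-1 factor gene, was called higher in both knockouts, at 0.65 ± 0.107 (adjusted p = 0.0204, limma) and 0.68 ± 0.0984 (adjusted p = 0.0123, limma), with 5.94 and 5.06 FPKM in WT and between 7.70 and 9.54 in the KO libraries. *Ccnd1* was called lower in both, at -0.76 ± 0.158 (adjusted p = 0.0385, limma) and -0.67 ± 0.0980 (adjusted p = 0.0127, limma), with 54.7 and 54.5 FPKM in WT and between 27.0 and 37.7 in the KO libraries. *Etv1*, named after its values were seen, was called higher in *Dnttip1* KO at 0.73 (adjusted p = 0.0234, limma) and was at -0.07 in *Elmsan1* KO (adjusted p = 0.900, limma). *Junb* lies on chromosome 8, and with each chromosome centred on its own median its log2 fold changes were 0.28 and 0.33 (adjusted p = 0.172 and 0.106, limma), no longer called. With an estimated correlation within clones *Ccnd1* was called in both knockouts (adjusted p = 0.122 and 0.0778, limma), while the calls of *Junb* (adjusted p = 0.296 and 0.247, limma) and *Etv1* (adjusted p = 0.274, limma) were lost.

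Markers of other cell states moved with the lines and were measured beside these results. Of the 4 listed primed epiblast genes in the table, the sum was 21.6 and 22.7 FPKM in WT, between 26.0 and 27.0 in D2A7, between 14.0 and 16.8 in D1E6 and E2G7, and between 4.60 and 4.92 in E2E8. Nearly all of this sum was *Otx2* and *Dnmt3b*, which did not move together. *Otx2* had means of 11.1 FPKM in WT, 11.0 in D2A7, 2.90 in D1E6, 0.752 in E2E8 and 2.97 in E2G7. *Dnmt3b* had means of 10.7, 15.3, 10.8, 3.74 and 13.6 in the same order. *Fgf5*, the FGF member of this list, was under 0.1 FPKM in every library. The 4 neural genes summed to 4.55 and 4.69 FPKM in WT and to between 6.29 and 13.8 in the KO libraries, nearly all of it *Nes*, and 2 of the 4 were under 0.1 FPKM in every library. The 7 primitive endoderm genes summed to between 0.702 and 1.58 FPKM. The 4 mesendoderm genes summed to 6.72 and 6.76 FPKM in WT, to between 6.53 and 6.68 in D2A7 and to between 4.64 and 5.17 in the other clones. Among them, *Eomes* was at 1.84 and 1.89 FPKM in WT and reached 3.23 in a KO library. *Gsc* was at 3.93 and 4.09 in WT and ranged from 1.21 to 4.17 over all libraries. *T* and *Mixl1* were highest in a WT library. The 5 trophectoderm genes, of which 2 were under 0.1 FPKM in every library, summed to 37.3 and 39.7 FPKM in WT, to between 36.7 and 38.0 in E2E8 and to between 25.3 and 31.6 in the other clones. Nearly all of this sum was *Tfap2c*, at 35.3 and 37.8 FPKM in WT. *Eomes* is on this list and on the mesendoderm list. The part of these states in the changes of the FGF genes was not tested. In bulk RNA, fewer cells that express a gene and less RNA of it in each cell cannot be told apart.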

How the data were processed

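RNA-seq libraries of 5 mESC lines, 2 of each, were analysed from the FPKM table deposited by the authors. Per the labels and the study's methods, the authors made paired-end reads of total RNA with a stranded kit, aligned them to NCBIM37, counted fragments per gene with HTSeq and computed FPKM. The submitters' processing notes also name edgeR 3.16.5, limma and R 3.3.1. The gene identifiers match GENCODE vM1 for 97.8% of the 34591 genes, and its exon lengths turned 98.3% to 98.5% of values under 100 fragments into whole fragments (within 0.05). All 10 sample columns were used.

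Each library was divided by a size factor, the median of its ratios to the geometric means of 11270 genes that reached 1 FPKM everywhere. A gene entered a comparison if 2 or more of its libraries held 0.1 FPKM or more. The test was limma 3.58.1 in R 4.3.3, run on log2(FPKM + 0.1) (moderated, two-sided, variance trend, Benjamini-Hochberg adjustment over all genes tested). Fold changes are on this scale, which understates changes of low genes. Genotypes were compared with only the libraries of both genotypes in the fit, and lines with all 10 libraries in a single fit. The fits were tested on simulated data. These were drawn without differences between clones of a genotype, so they say nothing on how such differences affect the p-values. Tables and figures used Python 3.11.15, numpy 2.4.6, pandas 2.3.3 and matplotlib 3.10.9. Promoter windows came from RefSeq on GRCm38.p6, and no coordinates were converted.

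The members, the pathway lists and the tests were chosen with earlier results of these data known. Named genes are the 10 members, the targeted genes, pathway genes that both knockouts called with the same sign, and, for each member called against WT, its nearest tested neighbor on each side and the 3 genes most correlated with it. Alternatives were other pseudocounts and filters, the FPKM as deposited, quantile normalization, chromosome centring, voom on recovered fragments, adjusted p-values, a replicate block, correlation within clones, other sets of libraries in the fit, and each library left out. Protein sequences of the members were not analysed here.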

Additional observations from a re-analysis of the deposited data

Results flagged for a closer look

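The lowest *Fgf3* level among the 4 *Elmsan1* KO libraries, 0.468 FPKM in the first E2E8 library, stood apart from the other 3 by Dixon's criterion. The highest *Fgfr2* level among the 4 *Dnttip1* KO libraries, 0.394 FPKM in the first D1E6 library, did so too. Chance marks about 1 in 20 such groups, and 20 were examined.

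Differences between groups passed the test in 4 cases. *Fgf3* was higher in *Dnttip1* KO than in *Elmsan1* KO by a log2 value of 0.88. *Fgf3* was higher in D2A7 than in D1E6 by 0.79 and *Fgf17* was lower there, at -0.63. *Fgfr4* was higher in E2E8 than in E2G7 by 1.53. The cause of these differences was not tested.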

How the results depend on the processing

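Of the single-gene results under the alternatives, 1512 stayed called or not called as before, 68 lost the call and 18 gained it. A change that was not called could switch sign, as for *Fgfr1* in E2E8 against WT. Its log2 fold change ranged from -0.18 to 0.20 over the settings. With a pseudocount of 1, the members called numbered 2 in *Dnttip1* KO and 1 in *Elmsan1* KO against WT, and 0 between the knockouts. Over all genes this setting lowered the calls from 1135 to 540, from 1106 to 525 and from 268 to 79. Among the lines, the members called numbered 0 between D2A7 and D1E6, 0 between E2E8 and E2G7, and 2 in D1E6, 3 in E2E8 and 2 in E2G7 against WT. With only genes at a mean of at least 1 FPKM, which leaves out low members, 2 and 2 members were called in the knockouts and 0 between them. Over all genes 664, 603 and 112 were called there. The members called numbered 0 between E2E8 and E2G7, and 2, 2, 4 and 2 in D2A7, D1E6, E2E8 and E2G7. With no filter, 0 members were called between the knockouts, where 151 of all genes were called, and 1 member between D2A7 and D1E6. Quantile normalization gave 4 between D2A7 and D1E6 and 2 between E2E8 and E2G7, where a pseudocount of 0.01 and voom each gave 3. The fit of only the libraries of the 2 lines gave 1 between D2A7 and D1E6. An adjusted p under 0.05 gave 0 members between the knockouts, where 4 of all genes were called. Correlation within clones gave 1 in *Elmsan1* KO and 0 between the knockouts, and over all genes it lowered the calls from 1135 to 538, from 1106 to 486 and from 268 to 54 in the 3 genotype comparisons. The cause was not tested.

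Leaving out 1 library gave from 2 to 4 members in each knockout against WT, 0 to 1 between the knockouts, 0 to 2 between D2A7 and D1E6, 1 to 2 between E2E8 and E2G7, and 4 to 5, 3 to 4, 4 to 7 and 4 to 5 in D2A7, D1E6, E2E8 and E2G7 against WT. In these fits the line left with 1 library is assumed to vary like the others.

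Replicate numbers did not pair the samples: over 10 pairs of lines, same-numbered deviations correlated from -0.139 to 0.192, with 1 over 0.1. A replicate block gave 3 members in each knockout against WT, losing *Fgf17* in *Dnttip1* KO and *Fgfr2* in *Elmsan1* KO, 1 between the knockouts, 2 between D2A7 and D1E6, 1 between E2E8 and E2G7, and 4, 4, 7 and 4 in D2A7, D1E6, E2E8 and E2G7 against WT. Over all genes the block gave 897 calls in *Dnttip1* KO and 871 in *Elmsan1* KO against WT, beside 1135 and 1106 without it. Depth limits *Fgf8*, with 34 fragments in all, and *Fgf15*, with 241.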
